A study of Mus musculus with 36 samples.

Results

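Rgcc, Cdh6, Adamts16 and Ccl4 are 4 of the 55487 genes in the count table, and all 4 were among the 15489 genes that passed the expression filter. They were picked because their change after dexamethasone (Dex) in fibroblasts with the GRD/D receptor was larger than, or opposite to, the change in GRwt/wt. Dex is a synthetic glucocorticoid. The Dex responses of GRD/D and GRwt/wt of both runs, and the vehicle levels they contain, are therefore given as a description of these 4 genes without a test. Tests were made only in GRL/L, GRD+L/D+L and GRko/ko, whose libraries the choice did not use.

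Total RNA was sequenced from primary mouse embryonic fibroblasts (MEFs) treated for 5 h with solvent (vehicle) or 1 µM Dex. The 36 libraries formed 12 groups of 3, and the cultures of a genotype came from different mice. Run 1 held GRwt/wt replicates 1 to 3, GRD/D, which carries a point mutation in the dimerization loop of the DNA-binding domain, GRD+L/D+L and GRko/ko, in which the receptor gene is disrupted. Run 2 held GRwt/wt replicates 4 to 6 and GRL/L, with a point mutation in the ligand-binding domain. GRD+L/D+L of run 1 was homozygous for both mutations, joined in the same receptor protein. The labels give the strain as FVB/NJ for every library, whereas the methods of the study name another strain for the parents of GRko/ko. If the methods hold, genotype and strain cannot be told apart when GRko/ko is set beside the other genotypes. GRL and GRD+L were made by CRISPR/Cas9 in zygotes and backcrossed to FVB/NJ. GRL/L was measured only in run 2 and the other mutants only in run 1, so genotype and run cannot be told apart when GRL/L is set beside them.

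The glucocorticoid receptor (GR, gene Nr3c1) is a transcription factor of the nuclear receptor family that moves to the nucleus when it binds a glucocorticoid. It raises many genes by binding DNA as a dimer at glucocorticoid response elements, and it lowers many inflammatory genes, chemokine genes among them, by acting on other transcription factors. Rgcc encodes a regulator of the cell cycle that binds the kinase CDK1. Cdh6 encodes a classical cadherin of type II, a calcium-dependent adhesion molecule of the cell surface. Adamts16 encodes a secreted metalloprotease with thrombospondin motifs. Ccl4 encodes a chemokine made by macrophages and other immune cells.

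Library totals were 15280166 to 19102035 counts in run 1 and 21532686 to 28662608 in run 2. Nr3c1 stood at 15.9 to 20.4 CPM (counts per 1000000 counts of the TMM-scaled library size) in the GRko/ko libraries and at 47.8 CPM or more in every other library. All 8 fibroblast markers were present in all 12 groups, with a summed level of 30951 to 51162 CPM. Of 20 macrophage markers, 19 or 20 were also detected in each of the 12 groups, and their summed level differed between genotypes, from 38.4 to 48.2 CPM in GRD+L/D+L through 234 to 411 in GRwt/wt of run 1, 526 to 589 in GRwt/wt of run 2, 842 to 1015 in GRD/D and 842 to 1198 in GRL/L up to 3550 to 4082 in GRko/ko. One library stood apart for these genes: vehicle replicate 2 of GRwt/wt run 1 had the highest Cdh6, Rgcc, Ccl4 and Ccl3 levels and the highest macrophage sum (411 CPM, against 256 and 234) of its group. Over the 378 genes that passed the thresholds as raised by Dex in GRwt/wt of run 2, it lay a median of 0.09 (log2) above the other vehicle libraries of its group. Results for the chosen genes, for Ccl3 and for the named genes with a differing response are given with and without it where they turn on it. Medians of gene lists are given with it only.

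**Figure D1:**
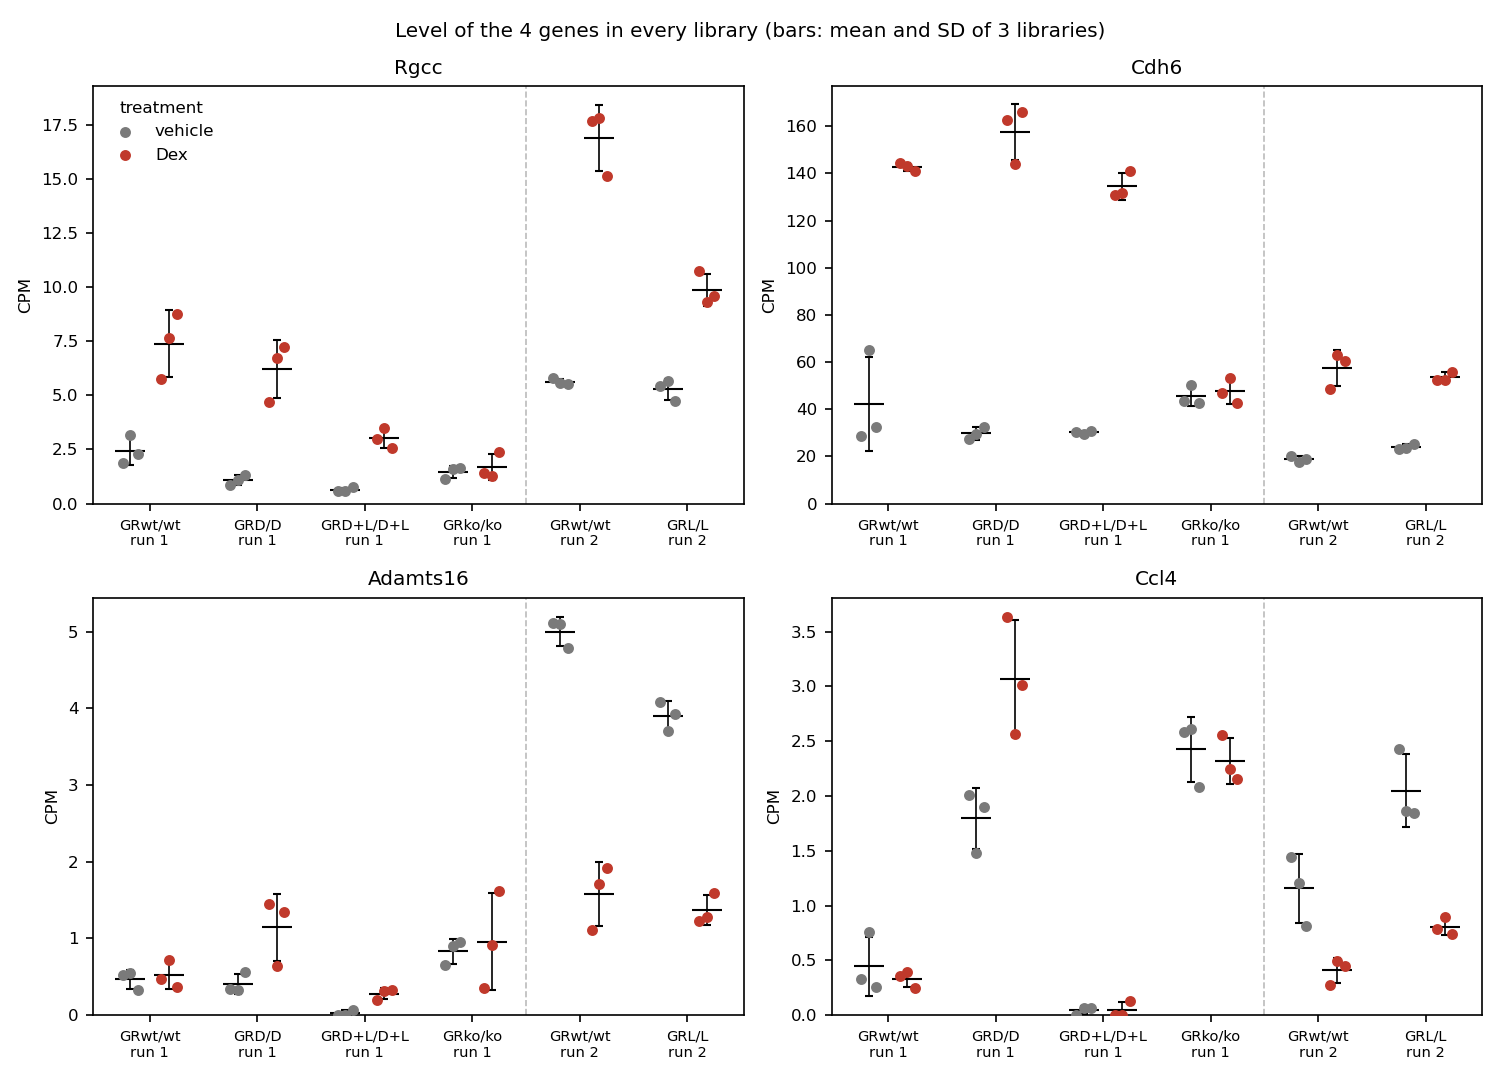
Level in CPM of Rgcc, Cdh6, Adamts16 and Ccl4 in each library, by genotype and run, with vehicle in grey and Dex in red; bars give the mean and SD of 3 libraries, and the dashed line parts run 1 from run 2. Cdh6 with Dex lies at 131 to 166 CPM in the 3 run 1 genotypes with a receptor and at 48.6 to 63.1 CPM in run 2, and Adamts16 with vehicle is at 3.70 to 5.11 CPM in run 2 and at 0.948 CPM or less in run 1.

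Rgcc and Cdh6 were higher with Dex in every genotype that carries a receptor. Both lie on the minus strand of mm10, Rgcc at chr14:79288756-79301645 and Cdh6 at chr15:13028701-13173675. The 250 bases before the RefSeq start of each (GRCm38.p6, minus strand, chr14:79301636-79301885 and chr15:13173676-13173925) are shown so that the letters near their starts can be set beside the responses; the table of promoters used here held these 2 of the 4 genes. Capitals mark GC boxes (GGGCGG, or CCGCCC on the other strand) and TATAA.
Rgcc: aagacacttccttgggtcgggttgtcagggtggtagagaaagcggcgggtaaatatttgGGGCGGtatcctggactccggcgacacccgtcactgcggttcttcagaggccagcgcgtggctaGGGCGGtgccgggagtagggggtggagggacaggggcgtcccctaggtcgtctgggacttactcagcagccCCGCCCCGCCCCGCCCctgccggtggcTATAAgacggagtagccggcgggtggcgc
Cdh6: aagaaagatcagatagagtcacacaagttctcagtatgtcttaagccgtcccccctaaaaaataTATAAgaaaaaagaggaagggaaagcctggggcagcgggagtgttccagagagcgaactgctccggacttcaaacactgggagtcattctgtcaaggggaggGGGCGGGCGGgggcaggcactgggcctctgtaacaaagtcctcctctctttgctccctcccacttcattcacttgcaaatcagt
Neither window held a full glucocorticoid response element (AGAACA, 3 free bases and TGTTCT), a receptor half-site (TGTTCT), an AP-1 site (TGANTCA), an E-box (CACGTG) or a cAMP response element (TGACGTCA) on either strand. Of 32851 promoter windows of this length, 3 held the full element (0.00913%), 16.1% the half-site, 6.75% the AP-1 site, 6.02% the E-box and 1.55% the cAMP response element, so that the lack of these letters is the common case and says nothing about binding elsewhere. Rgcc had 5 GC boxes, 3 of which follow on each other with shared bases at 56 to 41 bases before the start, and a TATAA at 29 to 25 bases before it. Cdh6 had 2 overlapping GC boxes at 84 to 75 bases and a TATAA at 186 to 182 bases before its start. GC boxes were present in 32.7% of all windows and TATAA in 22.8%. The window of Rgcc was 66.8% G or C and that of Cdh6 51.2%.

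In GRD/D, Rgcc stood at 0.871, 1.10 and 1.34 CPM with vehicle and at 4.69, 6.74 and 7.23 CPM with Dex. The GRwt/wt cultures of run 1 stood at 1.88, 3.15 and 2.27 CPM with vehicle and at 5.73, 7.65 and 8.78 CPM with Dex. With vehicle each GRD/D library was below each GRwt/wt library of run 1, whereas with Dex the genotypes overlapped. The fitted log2 fold change was 2.47 ± 0.23 (SE, n = 3 per treatment) in GRD/D, 1.60 ± 0.19 in GRwt/wt of run 1 and 1.58 ± 0.13 in GRwt/wt of run 2. The excess of GRD/D over run 1 was thus 0.87 ± 0.32 on the log2 scale, and 0.65 without vehicle replicate 2 of GRwt/wt. It came with a vehicle level 2.21-fold higher in GRwt/wt of run 1 than in GRD/D (1.88-fold without that replicate) and with a Dex level in GRD/D that was 0.842 of that in GRwt/wt. In absolute level, Rgcc with Dex was not above GRwt/wt in GRD/D.

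Cdh6 had much higher counts, and its fitted fold change was also larger in GRD/D. Its vehicle levels were 27.2, 29.7 and 32.5 CPM in GRD/D and 28.7, 65.1 and 32.6 CPM in GRwt/wt of run 1. With Dex it stood at 163, 144 and 166 CPM in GRD/D and at 144, 143 and 141 CPM in GRwt/wt of run 1. The GRD/D and GRwt/wt libraries overlapped under either treatment. The log2 fold change was 2.40 ± 0.15 in GRD/D, 1.77 ± 0.14 in GRwt/wt of run 1 and 1.60 ± 0.15 in GRwt/wt of run 2. The excess of 0.63 ± 0.20 over run 1 rested on the single vehicle library at 65.1 CPM, for without it the response of GRwt/wt in run 1 was 2.22 and the excess 0.19. Without vehicle replicate 1 of the same group, the excess was 0.85. Against run 2 the excess was 0.80 ± 0.21, but in run 2 the GRwt/wt levels with Dex were far lower, at 48.6 to 63.1 CPM, after 17.8 to 20.2 CPM with vehicle. Against run 1, larger fold changes of Rgcc and Cdh6 in GRD/D hence did not mean higher levels with Dex beyond the spread between libraries.

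**Figure D2:**
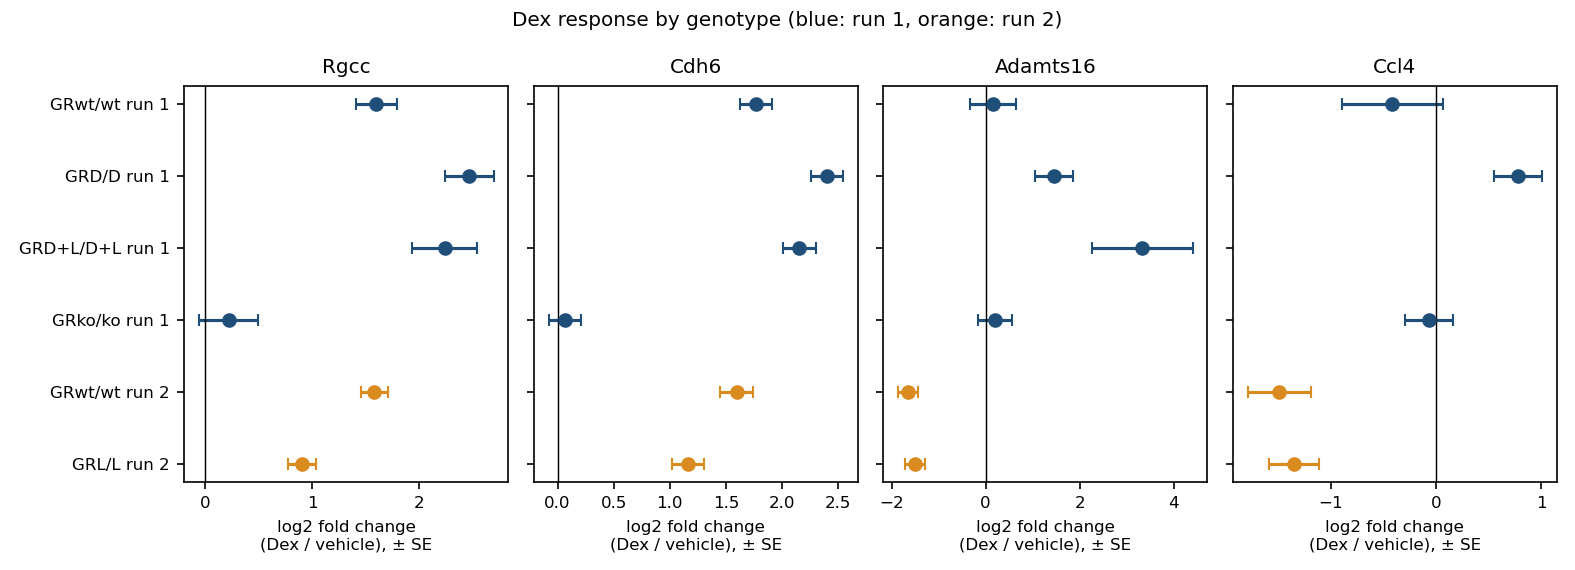
Log2 fold change of Dex over vehicle (± SE, x axis, a scale of its own for each gene) for the 4 genes in each genotype, with run 1 in blue and run 2 in orange. Rgcc and Cdh6 lie right of 0 in all genotypes with a receptor and near 0 in GRko/ko, Adamts16 and Ccl4 lie left of 0 in both genotypes of run 2, and no value is drawn for Ccl4 in GRD+L/D+L, which had 2 counts under each treatment.

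The tests outside the choice of genes gave a Dex response of both genes in GRL/L and in GRD+L/D+L. In GRL/L, Rgcc rose from 5.44, 5.66 and 4.72 CPM to 10.7, 9.33 and 9.58 CPM, a log2 fold change of 0.90 ± 0.13 (edgeR quasi-likelihood test, Benjamini-Hochberg adjusted p = 1.56e-06), just under the limit of 1 set on the log2 fold change. All 4 genes passed the adjusted p alone in GRL/L, as 19.1% of all tested genes did. Cdh6 rose there from 23.2, 23.5 and 25.3 CPM to 52.4, 52.3 and 56.0 CPM, by 1.16 ± 0.14 (adjusted p = 4.93e-08). For both genes each Dex library was above each vehicle library. Outside the choice of genes, Dex and vehicle libraries were apart for 4 of the 4 genes in GRL/L (37.4% of all tested genes), for 3 in GRD+L/D+L (23.3%) and for 0 in GRko/ko (11.4%). Of the 4 genes, 3 passed both thresholds in GRL/L, Cdh6 as higher and Adamts16 and Ccl4 as lower, where 2.56% of all tested genes did.

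In GRD+L/D+L, Rgcc rose from 0.591, 0.576 and 0.748 CPM, the lowest vehicle levels of any group, to 2.99, 3.51 and 2.58 CPM. The log2 fold change was 2.24 ± 0.31 (adjusted p = 1.95e-06), and all 3 Dex libraries exceeded all 3 vehicle libraries. Cdh6 rose from 30.2, 29.7 and 30.7 CPM to 131, 132 and 141 CPM, by 2.16 ± 0.15 (adjusted p = 5.25e-13). These 2 of the 4 genes were called in GRD+L/D+L, against 0.4% of all tested genes, 62 in number. Among the 43 genes called as higher there, Rgcc ranked 8th and Cdh6 9th by log2 fold change, and by p-value Cdh6 was the 5th and Rgcc the 113th of all tested genes. The fitted changes stood near those of GRD/D, at 2.47 and 2.40. With Dex, the Rgcc levels of GRD+L/D+L lay below every library of GRD/D and of GRwt/wt run 1, while its Cdh6 levels (131 to 141 CPM) came close to the 141 to 144 CPM of GRwt/wt run 1.

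In GRko/ko no response was detected. Rgcc stood at 1.12, 1.59 and 1.64 CPM with vehicle and at 1.39, 1.28 and 2.40 CPM with Dex, a log2 fold change of 0.22 ± 0.28 (adjusted p = 0.973, 95% interval -0.34 to 0.78). For Cdh6 the levels were 43.3, 50.1 and 42.8 CPM and 46.8, 53.3 and 42.7 CPM, and the log2 fold change was 0.07 ± 0.15 (adjusted p = 0.987, interval -0.23 to 0.36). No gene at all was called in GRko/ko by edgeR, where 859 genes had an unadjusted p under 0.05, and 1 by DESeq2. The response of GRD+L/D+L exceeded that of GRko/ko of the same run by 2.02 ± 0.43 for Rgcc (adjusted p = 0.00326) and by 2.09 ± 0.21 for Cdh6 (adjusted p = 1.59e-08), where 2.74% of all tested genes had different responses. The response of GRL/L was lower than that of GRD+L/D+L by 1.34 ± 0.35 (log2 difference -1.34, adjusted p = 0.0122) for Rgcc and by 0.996 ± 0.20 (log2 difference -0.996, adjusted p = 0.00108) for Cdh6, a test that 6.61% of all genes passed. For Rgcc this difference missed the threshold without GRD+L/D+L vehicle replicate 1 (adjusted p = 0.0519) or 2 (0.0564).

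The vehicle levels of Rgcc and Cdh6 differed between genotypes without any Dex. In GRD+L/D+L, Rgcc was 1.18 ± 0.35 lower than in GRko/ko (log2 difference -1.18, adjusted p = 0.00551), with every library below every GRko/ko library. Cdh6 was lower by 0.59 ± 0.16 (log2 difference -0.59, adjusted p = 0.00168), less than the limit on the fold change, and again the libraries did not overlap. Of all tested genes 51.2% passed the adjusted p and 14.4% both thresholds in this comparison. Strain may differ in it as well as genotype. In order of the group means, Rgcc ran from 16.9 CPM in GRwt/wt of run 2 with Dex, through 9.88 in GRL/L with Dex, 7.39 in GRwt/wt of run 1 with Dex and 6.22 in GRD/D with Dex, down to 0.638 CPM in GRD+L/D+L with vehicle. Neighbours in this order overlapped except after the first, the second, GRL/L with vehicle (5.27) and GRD/D with vehicle (1.10). Cdh6 ran from 158 CPM in GRD/D with Dex, 143 in GRwt/wt of run 1 with Dex and 135 in GRD+L/D+L with Dex, each overlapping the next, to 57.4 in GRwt/wt of run 2 with Dex and on to 19.0 CPM in GRwt/wt of run 2 with vehicle.

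**Figure D3:**
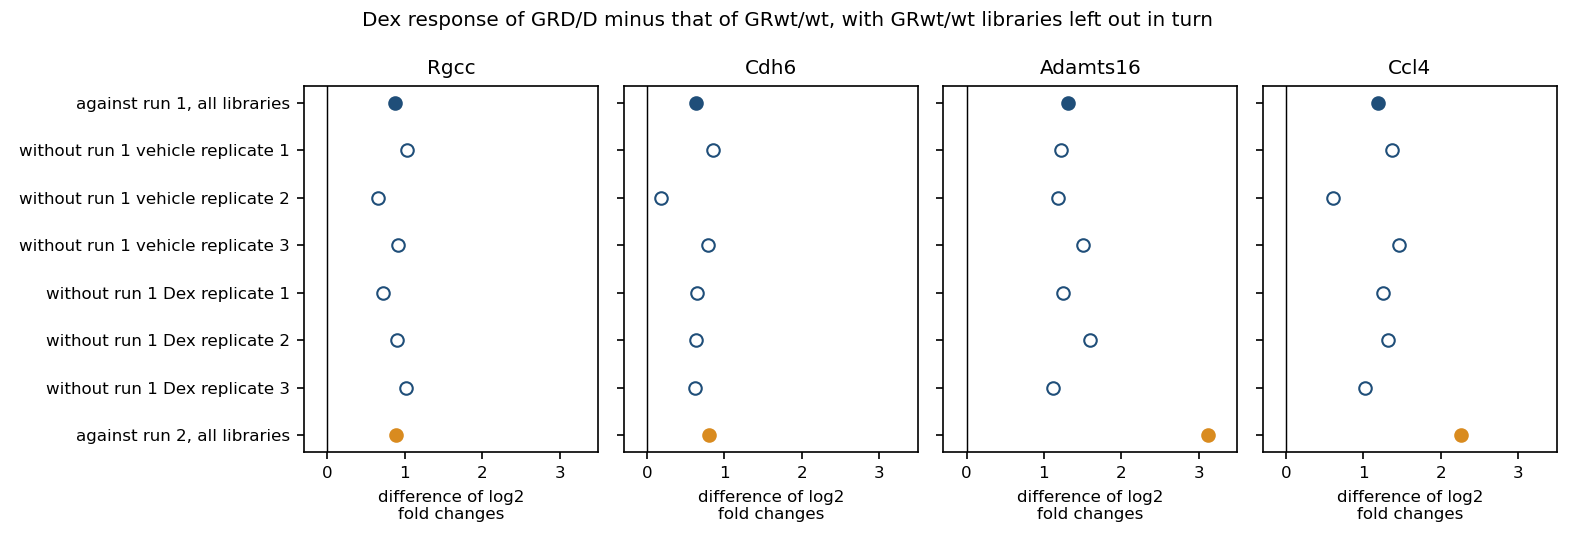
Dex response of GRD/D minus that of GRwt/wt, as a difference of log2 fold changes, for each gene: against run 1 with all libraries (filled blue) or with 1 GRwt/wt library left out (open blue), and against run 2 (orange). Without vehicle replicate 2 of run 1 the Cdh6 difference is 0.19 in place of 0.63 and that of Ccl4 0.61 in place of 1.19, and the orange points of Adamts16 (3.11) and Ccl4 (2.27) lie far to the right of the blue ones.

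Adamts16 (chr13:70727802-70841811, minus strand) was a gene of few counts in run 1, at 0 to 27 counts per library, against 28 to 145 in run 2. The mean over all libraries of both runs was 34.1 counts. In GRD/D it had 5, 6 and 10 counts with vehicle and 22, 10 and 20 counts with Dex, or 0.335, 0.330 and 0.558 CPM against 1.45, 0.642 and 1.34 CPM. All 3 Dex libraries were above the vehicle libraries, though replicate 2 only by a small step. The run 1 levels of GRwt/wt were 0.519, 0.548 and 0.324 CPM with vehicle and 0.473, 0.713 and 0.368 CPM with Dex, and the treatments overlapped. The log2 fold change was 1.46 ± 0.41 in GRD/D and 0.15 ± 0.48 in GRwt/wt of run 1, a difference of 1.31 ± 0.65.

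The opposite sign came from run 2. There Adamts16 stood at 5.11, 5.11 and 4.79 CPM with vehicle and at 1.11, 1.71 and 1.92 CPM with Dex in GRwt/wt, a log2 fold change of -1.66 ± 0.21. Its vehicle level in GRwt/wt of run 2 was 10.8-fold that of run 1. The difference of GRD/D from run 2 was 3.11 ± 0.46 and crosses the runs. GRL/L of run 2 had the same picture as GRwt/wt of its run. Adamts16 fell in GRL/L from 4.09, 3.70 and 3.93 CPM to 1.23, 1.28 and 1.59 CPM, a log2 fold change of -1.51 ± 0.22 (adjusted p = 1.13e-06), and all Dex libraries were below all vehicle libraries.

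In GRD+L/D+L the gene was close to the limit of detection. It had 0, 0 and 1 counts with vehicle and 3, 5 and 5 counts with Dex. The 3 Dex libraries exceeded the vehicle libraries and the ratio of the summed counts was 12.6, with a 95% counting interval (exact binomial) of 1.90 to 537. The adjusted p was 0.0675, and no call was made. The interval covers counting error only. In GRko/ko the levels were 0.647, 0.907 and 0.948 CPM with vehicle and 0.348, 0.911 and 1.62 CPM with Dex. They overlapped, with a log2 fold change of 0.19 ± 0.36 (adjusted p = 0.987, interval -0.54 to 0.92). The difference between the responses of GRD+L/D+L and GRko/ko missed the threshold (adjusted p = 0.172). That between GRL/L, where Adamts16 fell, and GRD+L/D+L passed it (adjusted p = 0.00204), with a size that depends on the single vehicle count of GRD+L/D+L. With vehicle, the 42 counts of GRko/ko were 37.9-fold those of GRD+L/D+L at 1 count (counting interval 6.44 to 1533). The log2 difference of GRD+L/D+L from GRko/ko fitted by edgeR was -4.89 (adjusted p = 4.23e-06).

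Ccl4 (chr11:83662584-83664683, plus strand) stood at 2.01, 1.48 and 1.90 CPM in GRD/D with vehicle and at 3.63, 2.57 and 3.01 CPM with Dex. All Dex libraries were above all vehicle libraries, and those 40 to 55 counts made GRD/D with Dex the group with the highest mean, 3.07 CPM, which overlapped that of GRko/ko with vehicle (2.43 CPM). The log2 fold change was 0.78 ± 0.23, the smallest of the 4 genes in GRD/D. GRwt/wt of run 1 had 5, 11 and 4 counts with vehicle (0.324, 0.754 and 0.259 CPM) and 6, 6 and 4 with Dex (0.355, 0.389 and 0.246 CPM). The treatments overlapped, and the log2 fold change of -0.41 ± 0.48 turned to 0.17 without vehicle replicate 2. The difference between GRD/D and run 1 was 1.19 ± 0.53, or 0.61 without that library. With vehicle alone, Ccl4 was 2.00 ± 0.34 (log2) higher in GRD/D than in GRwt/wt of run 1, and 2.58 higher without that library.

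Both genotypes of run 2 had lower Ccl4 with Dex. In GRwt/wt of run 2 it stood at 1.45, 1.20 and 0.817 CPM with vehicle and 0.277, 0.494 and 0.451 CPM with Dex, a log2 fold change of -1.49 ± 0.30. In GRL/L it fell from 2.43, 1.87 and 1.85 CPM to 0.782, 0.894 and 0.742 CPM, by a log2 fold change of -1.34 ± 0.24 (adjusted p = 3.82e-05), and the groups did not overlap. In GRko/ko the levels of 2.59, 2.61 and 2.09 CPM with vehicle and 2.55, 2.25 and 2.16 CPM with Dex overlapped (log2 fold change -0.07 ± 0.23, adjusted p = 0.993, interval -0.53 to 0.39). GRD+L/D+L had 2 counts in all under each treatment, which is within the floor of 3 counts, and no fold change is given. Its vehicle level was far below that of GRko/ko, whose 123 counts were 55.5-fold higher (counting interval 15.1 to 464). The log2 difference of GRD+L/D+L from GRko/ko fitted by edgeR was -5.60 (adjusted p = 7.45e-12).

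The macrophage markers bear on the levels of Ccl4, since fewer cells of a type and less RNA per cell cannot be told apart in bulk RNA. Their sum was lowest in GRD+L/D+L, where Ccl4 was near 0, and highest in GRko/ko. In GRD/D the sum was 842 to 896 CPM with vehicle and 850 to 1015 CPM with Dex, and of the 19 markers tested 0 passed the adjusted p as higher and 2 as lower, Ptprc (log2 fold change -0.46, adjusted p = 0.0482) and Cx3cr1 (-1.07, adjusted p = 0.00142). Per 1000 CPM of macrophage markers, Ccl4 was 2.07 CPM with vehicle and 3.32 with Dex in GRD/D, 2.01 and 0.731 in GRwt/wt of run 2, 1.91 and 0.815 in GRL/L, 1.49 (1.19 without vehicle replicate 2) and 1.08 in GRwt/wt of run 1, and 0.620 and 0.624 in GRko/ko. In GRL/L the sum was 1007 to 1198 CPM with vehicle and 842 to 1073 with Dex, with 2 markers higher and 8 lower, and in GRwt/wt of run 2 it was 557 to 589 and 526 to 588 CPM, with 3 higher and 4 lower. In each of these 3 groups the marker sums of the treatments overlapped while the Ccl4 levels did not. With vehicle, Lyz2 alone gave 492 of the mean sum of 868 CPM in GRD/D and 1817 of 3916 CPM in GRko/ko. This marker therefore weighs most in the sums and in the ratios to them. The part of the macrophage content in the differences between genotypes was not tested.

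**Figure D4:**
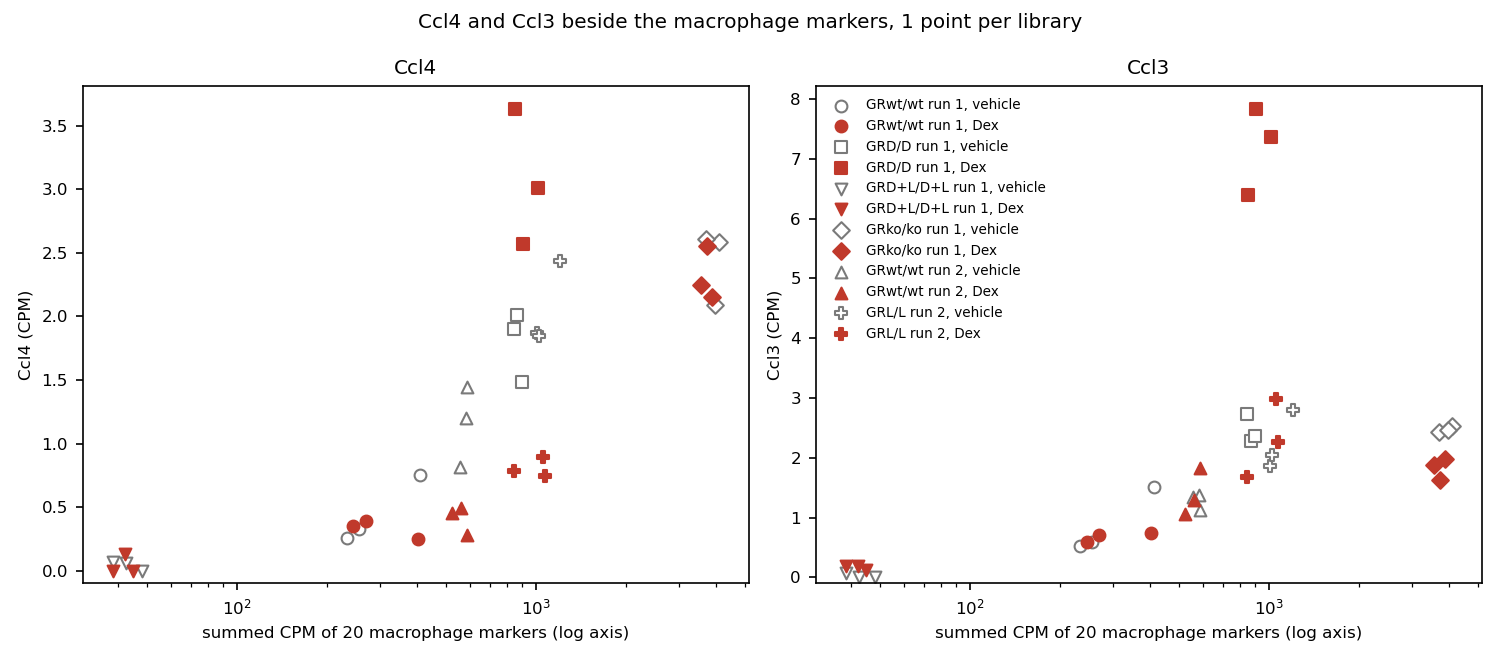
Ccl4 (left) and its neighbour Ccl3 (right) in CPM against the summed CPM of 20 macrophage markers (log axis), 1 point per library, with open symbols for vehicle and red for Dex. At marker sums of 842 to 1198 CPM, GRD/D with Dex has Ccl3 at 6.40 to 7.83 CPM, the highest of all libraries, and Ccl4 at 2.57 to 3.63 CPM, a range that GRko/ko with vehicle (2.09 to 2.61 CPM) overlaps, while GRL/L with Dex has Ccl4 at 0.742 to 0.894 CPM.

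Ccl3, the neighbour of Ccl4, was also higher with Dex in GRD/D. It encodes a related chemokine, and it lies 13228 bases from Ccl4 on chromosome 11, on the other strand. Ccl3 stood at 2.28, 2.36 and 2.74 CPM with vehicle and 6.40, 7.83 and 7.37 CPM with Dex in GRD/D and rose by 1.54 ± 0.20 (log2, adjusted p = 3.75e-07). Its GRwt/wt levels in run 1 were 0.584, 1.51 and 0.519 CPM and 0.591, 0.713 and 0.737 CPM, and the difference between the responses was 1.88 ± 0.43 (adjusted p = 0.00597). That difference rested on vehicle replicate 2 of GRwt/wt: without it the GRwt/wt response turned from -0.34 to 0.29, and the difference was 1.25 ± 0.48 and missed the threshold (adjusted p = 0.229). Its log2 fold change was 0.11 in GRwt/wt of run 2 and 0.03 in GRL/L (adjusted p = 0.774 and 0.940), where Ccl4 was lower.

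Besides Ccl4, 29 CC chemokine and receptor genes were listed and 17 were tested. In GRD/D, where 0.981% of all tested genes were called, 2 of them passed both thresholds as higher, Ccl3 and Ccl9 (1.20 ± 0.20, adjusted p = 4.37e-05), a chemokine that attracts dendritic cells, and 1 as lower, Ccr2, which had 5.17 counts per library on average. In GRwt/wt of run 1, 0 passed as higher and 1 as lower, Ccl2, a chemokine that attracts monocytes, at -1.14 ± 0.11 (adjusted p = 7.51e-10). Ccl2 was also lower in GRD/D by its adjusted p, at -0.34 ± 0.11 (adjusted p = 0.0345). In GRwt/wt of run 2, 6 of these genes passed as lower and in GRL/L 5, while 0 passed as higher in either. The background of called genes was 2.01% in GRwt/wt of run 1 and 4.49% in run 2. The median log2 fold change of the 17 genes was 0.30 in GRD/D, -0.41 and -0.52 in GRwt/wt of runs 1 and 2 and -0.17 in GRL/L, against -0.01 or nearer to 0 over all tested genes. The run 1 median includes vehicle replicate 2 of GRwt/wt. Without that library the run 1 response turned from -0.34 to 0.29 for Ccl3 and from -0.48 to 0.26 for Ccl9.

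Besides Cdh6, 25 cadherin and catenin genes were listed and 20 were tested. Of these, 0 were called in GRD/D, GRwt/wt of run 1, GRL/L, GRD+L/D+L or GRko/ko, and 1 was called in GRwt/wt of run 2, Cdh1, the epithelial cadherin, as lower. Cdh2, the neural cadherin, rose by 0.39 ± 0.05 in GRwt/wt of run 1 and by 0.16 ± 0.05 in GRD/D (adjusted p = 2.83e-07 and 0.0399). Cdh11, the cadherin of mesenchymal cells, fell by 0.29 ± 0.04 and by 0.25 ± 0.04 on the log2 scale (log2 fold changes -0.29 and -0.25, adjusted p = 1.71e-06 and 4.38e-05). Both changes were below the limit on the fold change.

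The gene family of Adamts16 moved in several directions. Besides Adamts16, 27 ADAMTS, ADAMTS-like and TIMP genes were listed and 25 were tested. The 1 called in GRD/D was Adamts15, a protease of aggrecan and versican, which rose by 2.35 ± 0.70 (adjusted p = 0.0225). Its log2 fold change was 1.22 ± 0.66 in GRwt/wt of run 1 (adjusted p = 0.257) and 1.12 ± 0.19 in run 2 (adjusted p = 1.17e-05). In GRwt/wt of run 1 the single one called was Adamts1, a protease of the same substrates, which rose by 2.18 ± 0.06 (adjusted p = 4.66e-26) and by 0.75 ± 0.06 in GRD/D (adjusted p = 1.80e-12). In run 2 of GRwt/wt, 5 passed as higher and 2 as lower. In GRL/L 2 passed as higher, Adamts1 and Timp4, and 0 as lower. In GRD+L/D+L 0 of the 25 were called. Adamts18, which belongs to the same subgroup as Adamts16, was at 1.19 CPM or less in every library, and its change was not called in any genotype.

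The cell cycle genes around Rgcc moved little. Of 14 listed genes of CDK1 and the p53 response, all were tested and 0 passed both thresholds in GRD/D, GRL/L, GRD+L/D+L or GRko/ko. Cdk1 had a log2 fold change of -0.01 ± 0.07 in GRD/D and -0.06 ± 0.07 in GRwt/wt of run 1 (adjusted p = 0.936 and 0.656). Wee1, the kinase that inhibits CDK1, rose by 1.14 ± 0.07 in GRwt/wt of run 1 and by 0.55 ± 0.07 in GRD/D (adjusted p = 1.81e-15 and 4.23e-07).

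The genes called in GRD/D were picked by the size of their response there, which favours changes larger than those of GRwt/wt. Of the 152 genes called there, 112 had a change larger than, or opposite to, that of GRwt/wt of run 1, a count made with all libraries. In 17 of the 112 the responses also differed by the adjusted p, a test that 3.29% of all genes passed. The 17 comprised 14 genes higher with Dex in GRD/D and 3 lower. Without vehicle replicate 2 of GRwt/wt, all 17 differences kept their direction and 8 still passed the adjusted p. By the smallest adjusted p of the difference they were led by Ugdh, which makes the sugar precursor of hyaluronan (1.07 ± 0.08 in GRD/D against -0.23 in GRwt/wt of run 1, adjusted p of the difference 5.33e-10), Inhbb, a subunit of activin and inhibin (1.16 ± 0.09 against -0.10, adjusted p = 1.00e-08), and Hip1r, a clathrin-associated protein (1.34 ± 0.09 against 0.54, adjusted p = 9.96e-05). In GRwt/wt of run 2 the log2 fold changes were -0.09 for Ugdh, 0.23 for Inhbb and 1.01 for Hip1r, the last nearer to GRD/D than run 1 was. Among the lower genes were Fgf7, a fibroblast growth factor (-1.03 ± 0.08 against -0.59, adjusted p = 0.0168), and 2 genes of immune cells, H2-Aa (adjusted p = 0.0164, 4.64 counts per library on average) and Cx3cr1 (-1.07 ± 0.23 against 0.47, adjusted p = 0.0466). For GRwt/wt of run 2 the values were -0.58 for Fgf7, 0.38 for H2-Aa and -1.62 for Cx3cr1. Cx3cr1 also had -1.49 in GRL/L, so its fall in GRD/D was opposite to GRwt/wt of run 1 but not of run 2. Without vehicle replicate 2 of GRwt/wt run 1, Ugdh, Inhbb, Hip1r and Cx3cr1 still passed. Fgf7 (adjusted p = 0.0639), H2-Aa (0.0526), Ccl9 (0.175) and Ccl3 did not. These genes were selected from the same contrast and are given as a description.

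**Figure D5:**
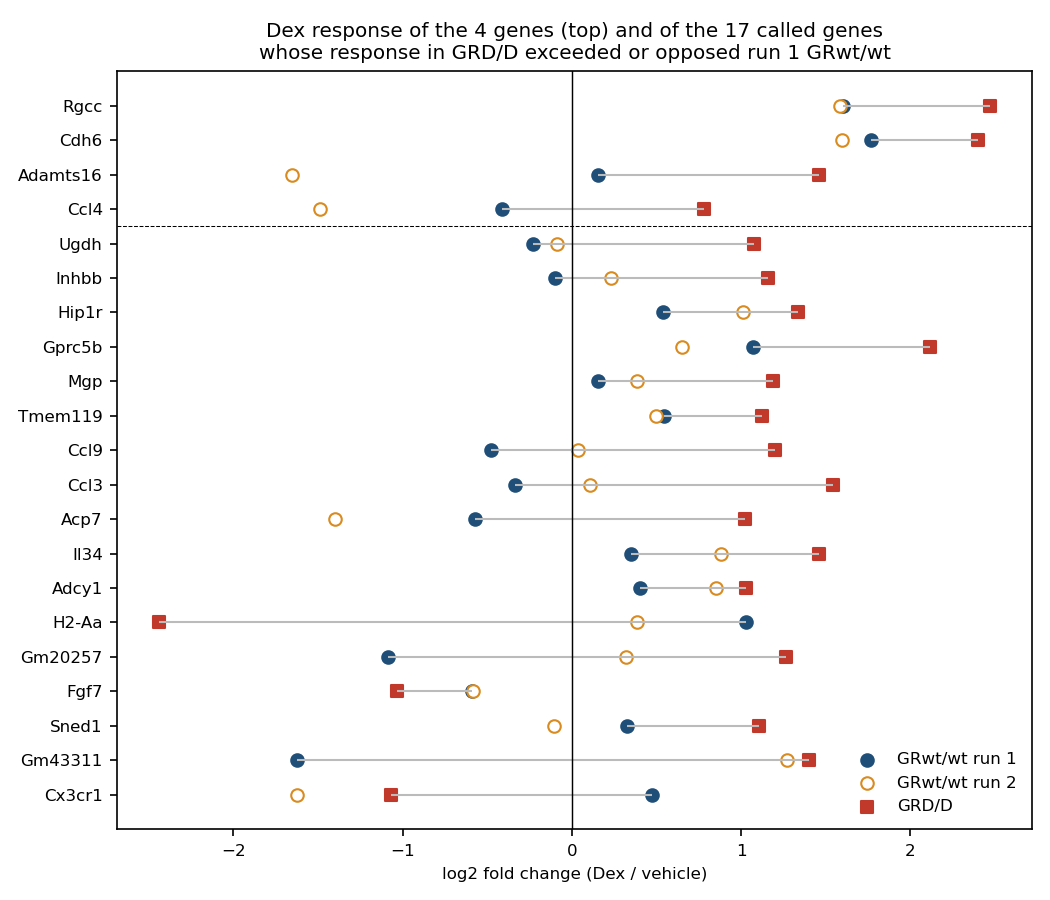
Log2 fold change of Dex over vehicle in GRD/D (red squares), in GRwt/wt of run 1 (blue) and in GRwt/wt of run 2 (open orange) for the 4 genes above the dashed line and for 17 genes called in GRD/D whose response was larger or opposite and differed from run 1. Rgcc and Cdh6 have both GRwt/wt runs at 1.58 to 1.77, while Adamts16 and Ccl4 have run 2 at -1.66 and -1.49, far from run 1 at 0.15 and -0.41.

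Over the 36 libraries, Pearson's r of log2 CPM between pairs of the 4 genes ran from -0.26 for Cdh6 and Adamts16 to 0.59 for Adamts16 and Ccl4 and 0.63 for Rgcc and Adamts16, and these libraries share genotypes and runs. Per kilobase of exon, the vehicle level in GRwt/wt of run 1 was 4.67 CPM for Cdh6, 2.65 for Rgcc, 0.676 for Ccl4 and 0.0679 for Adamts16. The genes most like each one over all libraries were, for Rgcc, Pxk (r = 0.927), Pmp22 (0.921) and Tmem119 (0.919), the last of which is also among the 17 genes above. For Cdh6 they were Hdac7 (0.893), Pttg1ip (0.891) and Per1 (0.871), a clock gene that had log2 fold changes of 1.91 in GRwt/wt of run 1 and 1.86 in GRD/D. For Adamts16 they were Rbmx (0.903), Pold3 (0.896) and Lmo4 (0.896), whose log2 fold changes lay between -0.37 and 0.23 in every genotype. For Ccl4 they were Plek (0.942), Lilr4b (0.937) and Pld4 (0.930), genes of blood cells. Plek had log2 fold changes of -0.26 in GRD/D and -0.65 in GRwt/wt of run 2.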

How the data were processed

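The authors deposited raw read counts per gene, made by mapping to mm10 with HISAT2 2.1.0 and counting with featureCounts 2.0.0 (submitters' processing notes); the strand setting and annotation are not given in the sources used here. Values were not normalized, and 22903 of the 55487 genes had 0 counts throughout. Symbols matched 55141 identifiers. All columns were used.

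Counts were tested with edgeR 4.0.16 and limma 3.58.1 in R 4.3.3 (quasi-likelihood F test, TMM, filterByExpr, 15489 genes, Benjamini-Hochberg over all of them) in a model with 1 term for each of the 12 groups of genotype, run and treatment, which contains the experiment term of the study's formula. A call needed an adjusted p up to 0.05 and a log2 fold change of 1 or more in size, and differences between responses at the adjusted p alone. Standard errors are the log2 fold change divided by the root of F. Levels are CPM. Intervals of count ratios and the floor of 3 counts cover counting error only. The biological coefficient of variation was 0.0513. The libraries of a group differed by 1.38 to 6.03 times the sampling noise over 36 pairs, so none was a copy. The procedure was tested on simulated data.

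The 4 genes and all lists were chosen with earlier results of these data known. Named beside the 4 genes were the 3 most correlated genes of each (log2 CPM with a prior count of 2, mean count of at least 50), called list genes (4 smallest adjusted p per list) with Ccl3, Cdh2, Cdh11, Adamts18 and Cdk1, and the genes with the smallest adjusted p of the GRD/D difference. One further gene that the rule names is not reported here. Ptprc, Cdh1 and Timp4 were named after their values were seen. Exons of Adamts16 share 0 bases with the 2 antisense genes that overlap it. Gene positions are from GENCODE and promoters from RefSeq (GRCm38.p6), which matched Rgcc and Cdh6. The alternatives were DESeq2 1.42.0, its size factors, no filter, a mean count of at least 10, a run term with GRwt/wt pooled, the replicate block, only the groups compared, no limit on the fold change, correlation over group means, and each library left out. Figures used matplotlib 3.10.9 in Python 3.11.15.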

Additional observations from a re-analysis of the deposited data

Results flagged for a closer look

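The Dex response differed between genotypes that the choice of genes did not use. GRD+L/D+L exceeded GRko/ko by 2.02 (log2) for Rgcc and by 2.09 for Cdh6. GRL/L was below GRD+L/D+L for Rgcc (difference -1.34), Cdh6 (-0.996) and Adamts16 (-4.83, a fitted size that rests on 1 vehicle count of GRD+L/D+L). These 5 differences passed edgeR's quasi-likelihood test, with adjusted p of 0.00326, 1.59e-08, 0.0122, 0.00108 and 0.00204 in that order. GRL/L and GRD+L/D+L were measured in different runs, so genotype and run cannot be told apart. GRD+L/D+L and GRko/ko may differ in strain as well as in genotype.

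In 5 further pairs every Dex library was above every vehicle library in one genotype and below in the other, and these differences were not tested. For Adamts16 they were GRD/D against GRwt/wt of run 2 (3.11), GRD/D against GRL/L (2.96) and GRD+L/D+L against GRwt/wt of run 2 (4.98, at 1 vehicle count). For Ccl4 they were GRD/D against GRwt/wt of run 2 (2.27) and against GRL/L (2.12). Each of the 5 pairs crosses the runs. Each also contains GRD/D or GRwt/wt, whose responses the choice of genes used, so the pairs are a description only. The share of all tested genes with such opposite separation is not given.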

How the results depend on the processing

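Of 304 refits of the 21 tested values, 296 kept their direction and their side of the threshold. Of 353 refits of the untested log2 values, 339 stayed within the set limits. The numbers of genes called are not among these refits. Where a value moved, the cause was not tested. DESeq2 called 1 gene in GRko/ko. Without a filter 28 were called there, and Adamts16 in GRD+L/D+L passed at 3.33 (edgeR, adjusted p = 0.0322). With a run term and GRwt/wt pooled, which sets GRwt/wt of run 2 into the comparison, the GRwt/wt response was -1.37 for Adamts16 and -1.18 for Ccl4, the GRD/D difference 2.83 and 1.96, and the vehicle difference of Adamts16 -0.82, and 533 genes were called in GRwt/wt and 1105 in the difference. Replicate numbers showed no clear pairing of the samples (18 pairs, correlations from -0.0787 to 0.116, 7 best with their own number). With 3 libraries per group, this cannot show whether vehicle and Dex libraries of a number came from the same culture. With the replicate block Adamts16 in GRD+L/D+L passed at 3.33 (adjusted p = 0.0481), and the block changed no other call among the Dex responses and their differences. Vehicle differences between genotypes could not be fitted with it. Without a limit on the fold change the calls numbered 2159 and 4901 in GRwt/wt of runs 1 and 2, 1838 in GRD/D, 2966 in GRL/L and 774 in GRD+L/D+L.

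With 1 library left out, the GRL/L minus GRD+L/D+L difference of Rgcc ranged from -1.46 to -1.21, and the GRD+L/D+L minus GRko/ko difference of Adamts16 from 2.64 to 5.31. The latter passed without GRko/ko Dex replicate 3 (adjusted p = 0.0490). The GRD/D difference from run 1 ranged from 0.19 to 0.85 for Cdh6 and 0.61 to 1.46 for Ccl4, and the vehicle difference from -0.71 to -0.045 and from 1.73 to 2.58. In GRwt/wt of run 1 the response ranged from 1.55 to 2.22 for Cdh6 and from -0.69 to 0.17 for Ccl4. Without vehicle replicate 2 of that group come 0.19, 0.61, -0.045, 2.58, 2.22 and 0.17. In GRko/ko it ranged from -0.11 to 0.39 for Rgcc, -0.018 to 0.15 for Cdh6 and -0.41 to 0.61 for Adamts16, and 0 to 6 genes were called. At 0 to 11 counts per library, Adamts16 and Ccl4 in several run 1 groups are limited by depth. Chosen after seeing the data, the 17 genes with a differing response were refitted without vehicle replicate 2 of GRwt/wt run 1, and 8 still passed.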
